A study of Mus musculus with 18 samples.

Results

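The KA group was analysed by setting its immunoprecipitated RNA (IP) against the whole-hippocampus RNA of the same homogenates (input), which gave 3 IP and 3 input libraries of the 18 in the series. Libraries with the same number came from 1 homogenate and form a pair. All mice were C57BL/6J males, 6 weeks old at surgery, that received 1 µL of an AAV-DJ carrying GfaABC1D-EGFP-Rpl10a in the right CA3. In the KA group, 50 nL of 20 mM kainic acid (KA) entered the right dentate gyrus 2 weeks after the AAV, and RNA was taken 14 days after KA. The AAV control group received the AAV alone and was collected 2 weeks after it, and the PBS group received PBS after the AAV. Each sample pooled 3 to 4 right hippocampi, so that the 3 pairs are pools of mice. Genes were members when their FPKM (fragments scaled to gene length and library total) was above 1 in all 6 KA libraries, which held for 10098 of 55291 gene symbols (18.3%).

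In translating ribosome affinity purification, a tagged ribosomal protein is expressed in 1 cell type, the ribosomes of those cells are pulled down with an antibody to the tag, and the mRNAs bound to them are sequenced. The tag here was EGFP on Rpl10a, a protein of the large ribosomal subunit, and the promoter GfaABC1D is a short form of the GFAP promoter that is active in astrocytes. The AAV was placed in CA3, whereas the input came from the whole right hippocampus. Kainic acid is an agonist of glutamate receptors that causes seizures, loss of pyramidal cells and gliosis. In reactive gliosis astrocytes enlarge and make more of the intermediate filament proteins Gfap and vimentin, and microglia multiply and change shape.

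The KA IP libraries held 10424010 to 11142671 counts and the KA input libraries 9534606 to 10202241. The lowest gene inside the FPKM limit was Slc6a15, whose lowest library, KA IP #3, stood at 1.00037, and the highest gene outside it was Siae, whose lowest library, KA input #2, stood at 0.999861. A further 1712 symbols passed the limit in all 3 input libraries but not in all 3 IP libraries, and 456 did the opposite, so a gene with almost no signal on one side was not tested. Pair 3 was sequenced in another run than pairs 1 and 2. IP #3 correlated with the other IP libraries at r = 0.966 and 0.972 on log2(FPKM + 1), against 0.990 between IP #1 and IP #2. List counts without pair 3 are given beside those that it moves by over 1.5 times and beside some others.

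The astrocyte markers stood above input in every pair. Aldh1l1, a folate enzyme used as a general astrocyte marker (chr6:90486427-90600203 on mm10), had FPKM of 25.4, 25.1 and 17.4 in IP #1 to #3 and 7.28, 6.51 and 5.69 in input #1 to #3. The 2 groups did not overlap, and the log2 fold change from edgeR was 2.01 ± 0.14, adjusted p = 4.66e-05, where ± is the standard error. For Gfap (chr11:102887336-102900912), the astrocyte filament protein, the values were 3377, 3624 and 4051 in IP and 376, 390.0 and 363 in input. This was the fifth highest fold change of all genes tested (3.52 ± 0.26, adjusted p = 6.41e-05). Vim (chr2:13573927-13582826), which encodes vimentin, had 354, 328 and 168 in IP and 52.2, 46.1 and 28.8 in input, with pair 3 lowest on both sides (2.95 ± 0.29, adjusted p = 2.04e-04). Rpl10a (chr17:28328471-28331033), the gene whose protein carries the tag, read 343, 231 and 196 in IP and 48.8, 46.7 and 53.8 in input (2.56 ± 0.21, adjusted p = 1.03e-04), and reads of the transgene and of the mouse's own gene cannot be told apart here. In these bulk libraries more cells of a type and more RNA per cell cannot be told apart either.

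**Figure D1:**
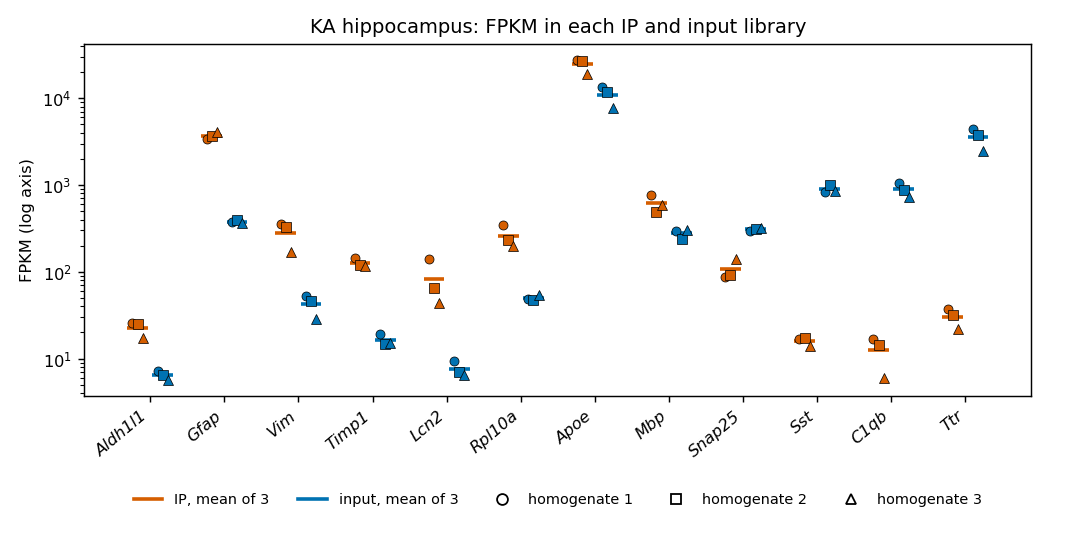
FPKM (log axis) of 12 genes in each KA library, with IP in orange and input in blue, 1 symbol per homogenate and a bar at the mean of 3. Gfap has 3377, 3624 and 4051 in IP and 376, 390.0 and 363 in input, whereas Sst has 16.8, 17.04 and 13.8 in IP and 824, 986 and 857 in input.

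Of the 10098 genes, 819 were higher in IP (8.11%) and 455 were lower (4.51%) at an adjusted p under 0.05 and a change of at least 2-fold. Their median log2 fold changes are set by those limits, and the median of all genes tested was 0.01. Among the calls, 64.3% were higher in IP with TMM scaling and the FPKM limit. This share depended on the filter as well. With TMM it was 56.4% for a mean FPKM above 1, 51.2% with edgeR's filterByExpr and 49.5% with no filter. When counts were divided by library totals alone, the median of all genes moved to -0.21, 585 genes were higher and 798 lower, and the higher calls made up 42.3%, so directions below are relative to the median gene. No called gene named here changed sign between the scalings. On the FPKM scale, which also divides by the library total, the mean IP to input ratio was at least 2 in 609 genes (6.03%) and at most 0.5 in 827 (8.19%). All 3 IP values lay above all 3 input values in 1470 genes (14.6%) and below them in 3542 (35.1%).

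**Figure D2:**
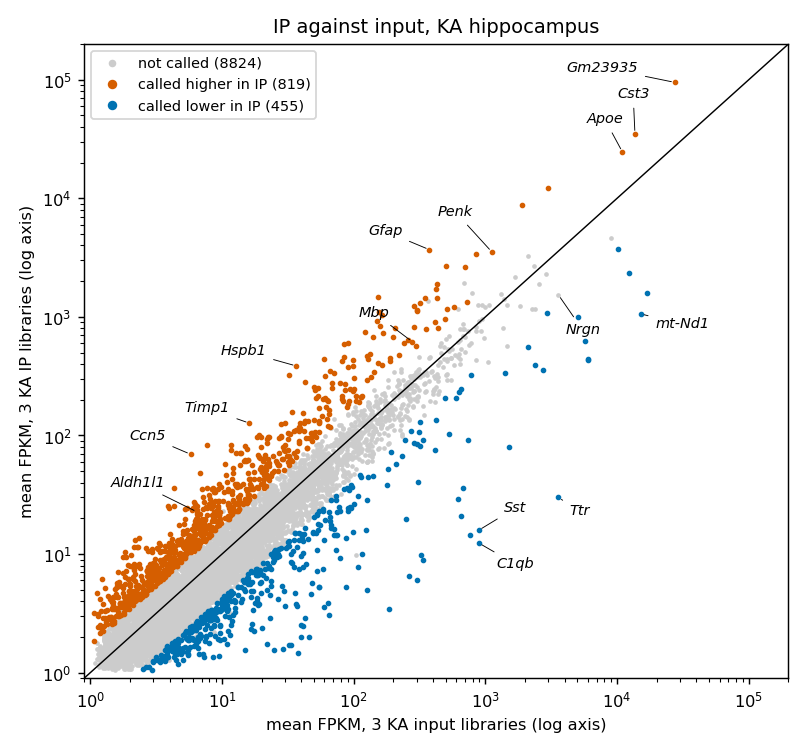
Mean FPKM of the 3 KA IP libraries against that of the 3 KA input libraries (both log axes), 1 point per gene tested, with the line of equal values. The 819 genes called higher in IP lie above the line and include Gfap, Timp1 and Hspb1, and the 455 called lower lie below it and include Ttr, C1qb and Sst.

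The 15 largest changes upward were led by secreted and stress proteins. Ccn5, a secreted matricellular protein, had FPKM of 102, 65.1 and 41.1 in IP and 8.38, 4.15 and 4.84 in input (3.78 ± 0.35, adjusted p = 1.54e-04). Lcn2, the iron carrier lipocalin 2 and a classical marker of reactive astrocytes, had 140.5, 65.4 and 43.7 in IP and 9.32, 7.08 and 6.54 in input (3.63 ± 0.38, adjusted p = 2.82e-04). IP #1 was the highest library for both genes, and their groups did not overlap. Hspb1, a small heat shock protein, followed with 443, 440.1 and 273 in IP and 38.9, 42.2 and 29.2 in input (3.60 ± 0.19, adjusted p = 1.85e-05). Serpinf1, the secreted serpin PEDF, had 405, 320.2 and 253 in IP and 37.2, 28.3 and 31.3 in input (3.54 ± 0.20, adjusted p = 2.04e-05). Timp1, an inhibitor of matrix metalloproteases, read 145, 119 and 117 in IP and 19.0, 14.5 and 15.02 in input (3.19 ± 0.15, adjusted p = 1.16e-05). The remaining genes were Fxyd1, a regulator of the sodium pump (3.49 on the log2 scale), the protease inhibitors A2m (3.28), Serpinf2 (3.03) and Serpina3n (3.01), the potassium channel subunit gene Kcne1l (3.13), the protease Klk6 (3.04), the transcriptional regulator Id3 (3.01), Dhrs1 (2.95), and Gfap and Vim above. Klk6 is also a known product of oligodendrocytes. Serpina3n belongs to a family of close paralogues, between which reads can be split.

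Reactive astrocyte genes, a list of 32, were the highest of the lists of at least 4 tested genes. Of the 22 that passed the FPKM limit, 21 were higher in IP and none lower, with a median log2 fold change of 2.57 against 0.01 for all genes tested. A further 4, Osmr, Sphk1, Cd109 and Emp1, passed the limit in IP only, 1 passed in input only and 5 in neither. The member that missed the call was Synm, a filament protein (0.88, adjusted p = 0.0102). Complement component C3 (2.78), the chemokine Cxcl10 (2.59), the hyaluronan receptor Cd44 (2.39) and the transcription factor Stat3 (1.24) were all higher in IP. S100a6, a calcium-binding protein, had FPKM of 366, 379 and 637 in IP and 74.1, 66.9 and 111 in input, with pair 3 highest on both sides (2.68 ± 0.36, adjusted p = 8.13e-04). The summed FPKM of the 32 genes ran from 6006 to 6359 in IP and from 774 to 818 in input. The count of calls was also 21 of 22 without pair 3.

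All 30 genes of the homeostatic astrocyte list passed the FPKM limit and all 30 were higher in IP, at a median of 1.78 and a range from 1.14 to 2.64. With library totals alone 27 of the 30 were called. Aqp4, the water channel of astrocyte endfeet, had the largest change, with FPKM of 383, 379.7 and 293 in IP and 77.0, 66.0 and 54.4 in input (2.64 ± 0.18, adjusted p = 4.66e-05). Kcnj10, the potassium channel Kir4.1, read 144, 132 and 104 in IP and 32.9, 30.3 and 27.8 in input (2.27 ± 0.14, adjusted p = 3.57e-05). The glutamate transporters had smaller ratios. Slc1a2 (GLT-1) stood at 448, 507 and 486 in IP and 223, 219.8 and 216 in input (1.35 ± 0.21, adjusted p = 0.00169), and Slc1a3 (GLAST) at 136, 128 and 97.5 and 71.5, 70.4 and 49.5 (1.14 ± 0.17, adjusted p = 0.00149). Gja1, the gap junction protein connexin 43, had 32.3, 31.6 and 23.2 in IP and 17.8, 14.97 and 12.4 in input (1.16 ± 0.15, adjusted p = 6.96e-04). Cst3, the protease inhibitor cystatin C, and Apoe, the main lipid carrier of brain, were the most abundant mRNAs of the IP by FPKM after the ribosomal RNA-like gene Gm23935. Apoe had 27579.7, 26973 and 19199 in IP and 13606, 11681 and 7624 in input (1.39 ± 0.32, adjusted p = 0.0124), and Cst3 29709, 34227 and 40518 and 14400.3, 12827 and 13765 (1.58 ± 0.32, adjusted p = 0.00619). Mt3, a metal-binding protein, had 1686, 1894 and 6608 in IP and 552, 613 and 1361 in input, with pair 3 far above the others on both sides (2.26 ± 0.66, adjusted p = 0.0306), and it missed the test in 4 of the 9 fits that left out a library or pair. The transcription factor Sox9 was lowest in pair 3 on both sides, so that the groups overlapped, though IP lay above input in every pair. Its FPKM was 60.3, 56.8 and 21.9 in IP and 27.4, 24.2 and 10.5 in input (1.37 ± 0.39, adjusted p = 0.0262, in the fit without a block).

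Protease inhibitors and other secreted factors separated into members above and below input. Of 18 protease inhibitors tested of 20 listed, 11 were higher in IP and 3 lower, at a median of 1.64. Timp4 (2.28), Timp3 (1.61) and the complement inhibitor Serping1 (2.20) were higher, whereas Timp2 stayed at -0.45 (adjusted p = 0.0705). The 3 lower genes were Spink8 (-4.50), Serpini1, the neuronal serpin neuroserpin (-1.94), and Spint2 (-1.14). The IGF binding proteins, which hold and deliver insulin-like growth factors, had 3 higher and 2 lower members of 6 tested. Igfbp2 (chr1:72824503-72852474) had FPKM of 1167, 903 and 702 in IP and 196, 149 and 106 in input, with no overlap (2.84 ± 0.25, adjusted p = 1.22e-04). Igfbp7 (1.9997) and Igfbp5 (1.66) were also higher, Igfbp6 (-2.15) and Igfbp4 (-1.05) were lower, and Igfbp3 was at 0.73 (adjusted p = 0.0286). Igfbp7 shares 85 exon bases with Polr2b on the opposite strand.

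Of 14 chaperone genes tested of 16 listed, the 5 called were all higher in IP. They were the small heat shock proteins Hspb1, Hspb8 (2.20), Hspb6 (2.11) and Cryab (2.09) and the co-chaperone Bag3 (1.52), which binds small heat shock proteins. The large chaperones lay near the median gene, with Hsp90aa1 at -0.30 (adjusted p = 0.236) and Hsp90ab1 at -0.33 (adjusted p = 0.34). Cryab is abundant in oligodendrocytes as well and stands in that list too. Among 12 matrix genes tested of 20 listed, 5 were higher and 2 lower. The higher ones included Sparc, a collagen-binding protein, with 2516, 2682 and 2846 in IP and 537, 481 and 500.3 in input (2.63 ± 0.23, adjusted p = 1.37e-04), and the lecticans Ncan (1.497) and Bcan (1.45). The lower ones were Hapln4 (-2.21), a link protein of neuronal nets, and Spp1 (-2.06), osteopontin, which activated microglia secrete.

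Microglial genes had the lowest median of the lists of at least 4 tested genes. Of 20 listed, 15 were tested and all 15 were lower in IP, at a median of -3.68. Another 4, Tmem119, Csf1r, Itgam and Cd53, passed the FPKM limit in input only. The complement gene C1qb (chr4:136880129-136886187) had FPKM of 16.7, 14.5 and 6.04 in IP and 1063, 886 and 724 in input (-5.97 ± 0.35, adjusted p = 2.49e-05), so IP #3 was the lowest library. C1qa read 21.9, 14.4 and 7.46 in IP and 955, 858 and 498 in input (-5.51 ± 0.39, adjusted p = 5.15e-05), and C1qc changed by -5.43. The others among the 15 largest changes downward were Lyz2 (-5.12), the Fc receptor chain Fcer1g (-5.01), the adaptor Tyrobp (-4.82), the protease Ctss (-4.78), Cst7 (-4.46), the lipid receptor Trem2 (-4.29) and Cd52 (-4.19). P2ry12, a receptor of resting microglia, was the least depleted of the list, at 1.45, 1.28 and 1.40 in IP and 10.3, 8.53 and 9.71 in input (-2.57 ± 0.17, adjusted p = 4.66e-05). The summed FPKM of the 20 genes was 77.1 to 139.9 in KA IP and 3093 to 4292 in KA input, whereas the AAV control inputs held 222 to 537.

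Single genes of blood and choroid plexus and 4 of 6 endothelial genes were lower in IP. None of the 3 mural cell genes tested was lower, but 5 of the 10 listed passed the FPKM limit in input only. The summed FPKM of the 10 mural cell genes was 27.7 to 41.8 in KA IP and 60.5 to 64.5 in KA input. Ttr, transthyretin, the main product of choroid plexus, had the largest change of all genes, with 37.0, 31.3 and 21.8 in IP and 4459, 3816 and 2478 in input (-6.68 ± 0.30, adjusted p = 1.15e-05). Its level in AAV control and PBS input averaged 1694 ± 1517 and 183 ± 146 (SD, n = 3), and the part of choroid plexus RNA in the other ratios was not tested. The haemoglobin genes Hbb-bt (-5.53) and Hba-a2 (-4.19), each with near-identical copies that can share its reads, were also lower in IP. Only 6 of 18 endothelial genes passed the FPKM limit, of which 4 were lower in IP, among them Ly6c1 (-4.08) and the tight junction gene Cldn5 (-2.85). The single endothelial gene called higher was Sparc, which astrocytes also make. Of 10 mural cell genes 3 were tested and 2 were higher, the muscle genes Myl9 (1.37) and Acta2 (1.17, adjusted p = 0.0496, and 0.62 with adjusted p = 0.159 without IP #1), while the pericyte genes Vtn, with 1.15, 0.899 and 1.03 in IP and 26.0, 25.6 and 26.2 in input, and Rgs5 passed in input only. Without pair 3 the mural cell counts were 2 higher and 1 lower of 4. The 1 fibroblast gene tested of 10, Mgp, was lower (-4.04). In the list of ependyma and choroid plexus, Ttr and Folr1 (-1.66), both of choroid plexus, were lower, and 4 of the 5 others tested were higher, among them Rarres2 (1.72) and the ciliary genes Foxj1 (1.64), Ccdc153 (1.24) and Dynlrb2 (1.12). With library totals alone 2 genes of this list were called higher, and 5 without pair 3. Without IP #1 Ccdc153 was at 0.63 (adjusted p = 0.131) and Dynlrb2 at 0.76 (adjusted p = 0.0989). Rarres2 shares 892 exon bases with Lrrc61 on the opposite strand.

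Neuronal genes were depleted less than microglial ones by the size of their medians. Of 19 pan-neuronal genes tested of 20, 12 were lower in IP and none higher, at a median of -1.14, and 15 of 20 were lower without pair 3. Snap25, a protein of synaptic vesicle fusion, had FPKM of 86.8, 92.1 and 142 in IP and 298, 313 and 323 in input (-1.30 ± 0.27, adjusted p = 0.00732). The growth-associated genes Stmn2 (-2.55) and Gap43 (-1.76) changed most. The neurofilament genes Nefm (-0.17, adjusted p = 0.564) and Nefl (-0.26, adjusted p = 0.16) did not pass the test. Principal cell genes had 6 lower members, 10 with library totals alone, and none higher of 16 tested of 20, at a median of -0.86. Pyramidal cell genes led them, with Spink8 at -4.50, Neurod6 at -3.05 and the calcium sensor Hpca at -2.21. Prox1, the transcription factor of dentate granule cells, read 11.7, 12.9 and 9.94 in IP and 12.8, 11.2 and 9.13 in input (0.28 ± 0.13, adjusted p = 0.124), and it shares 133 exon bases with Prox1os on the opposite strand. Nrgn, an abundant postsynaptic protein of principal cells, stood at 1154, 1510.1 and 1953 in IP and 3706, 4186 and 2835 in input, an overlap-free difference below the 2-fold limit (-0.96 ± 0.28, adjusted p = 0.0308).

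Interneuron genes had 4 lower members and none higher of 10 tested of 15, and the other 5 passed the FPKM limit in input only. The neuropeptide gene Sst (chr16:23889573-23890958), which marks a class of interneurons, was the third gene by size of decrease, at 16.8, 17.04 and 13.8 in IP and 824, 986 and 857 in input (-5.59 ± 0.16, adjusted p = 4.14e-06). Calb2, the calcium buffer calretinin, changed by -3.82. Gad1, which makes GABA, stood at -0.52 (adjusted p = 0.191). Peptide precursors and granins went both ways, with 4 higher and 3 lower of 17 tested of 20. Penk, the enkephalin precursor (chr4:4133531-4138819), had FPKM of 2380.4, 1905 and 6297 in IP and 1042, 913 and 1405 in input, with IP #3 far above the others (1.92 ± 0.52, adjusted p = 0.022). Without IP #3 the log2 fold change of Penk was 1.07 (adjusted p = 0.00954). Scg2, the granin secretogranin II (chr1:79434669-79440120), had 1030.3, 944 and 1538 in IP and 562, 499.6 and 474 in input (1.44 ± 0.27, adjusted p = 0.00459). Scg3 (1.604) and the dynorphin precursor Pdyn (1.44) were the other higher members, and Sst, the convertase Pcsk2 (-1.43) and Vip (-1.17) the lower ones. Npy, neuropeptide Y, was at 218, 568 and 3010.2 in IP and 538, 751 and 1541 in input, so that it was below input in pairs 1 and 2 and above it in pair 3 (0.71 ± 0.89, adjusted p = 0.579). Cck was highest in IP #1, with 1054, 354 and 288 in IP and 1878, 1429.7 and 1074 in input (-1.17 ± 0.44, adjusted p = 0.0719).

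Genes of mature oligodendrocytes were higher in KA IP. All 20 of the list passed the FPKM limit and 19 were called higher, at a median of 1.54, with 16 called when counts were divided by library totals alone. Mbp, myelin basic protein, had FPKM of 772, 494 and 581 in IP and 298, 237 and 303 in input (1.35 ± 0.25, adjusted p = 0.00419), and Mog, a surface protein of myelin, 157, 104 and 67.4 and 47.6, 37.8 and 40.8 (1.57 ± 0.24, adjusted p = 0.00182). Apod (2.61), a lipid carrier, and Trf (2.57), transferrin, had the largest ratios. The list's median log2 ratio of FPKM was 1.62 in pair 1, 1.40 in pair 2 and 0.81 in pair 3, and its summed FPKM was 3152 to 6153 in IP and 1409.9 to 1784 in input. Of 7 oligodendrocyte precursor genes tested, 1 was higher (Olig1, 1.19) and 1 lower (Cacng4, -1.26), against 8.11% and 4.51% of all genes tested. With library totals alone 0 were higher and 1 lower, so these few calls describe single genes and not the list. Pdgfra, the defining receptor of precursors, was at 0.206, 0.364 and 0.209 in IP and 1.52, 1.65 and 1.13 in input. What part oligodendrocyte RNA has in the other ratios was not tested.

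Mitochondrial transcripts, which are translated inside the mitochondrion, were depleted. All 11 mitochondrially encoded mRNAs tested of 13 were lower in IP, at a median of -3.23, and the 2 others passed the limit in input only. mt-Nd1, a subunit of complex I, had FPKM of 1275, 1346 and 560.3 in IP and 12798, 14672 and 17864 in input (-3.66 ± 0.37, adjusted p = 2.36e-04). These mRNAs together took 0.383% to 0.791% of the counts of KA IP and 5.46% to 7.81% of KA input. The nuclear genes of the respiratory chain gave no call in either direction among 77 tested of 83, at a median of 0.27, and Sdhc of complex II came nearest (0.93 ± 0.12, adjusted p = 8.89e-04). In the list of long noncoding RNAs 4 of 12 tested of 20 were lower and none higher, and 7 were lower without pair 3. The 4 were Snhg8 (-1.76), Meg3 (-1.55), Oip5os1 (-1.33) and Snhg11 (-1.04). The nuclear RNA Malat1 differed widely by pair, with 155, 247 and 859 in IP and 796, 819.8 and 1512 in input (-1.04 ± 0.67, adjusted p = 0.264). Of 80 ribosomal protein genes tested, Rpl10a and Rps27l (1.25) were higher and Rps12 (-1.42) lower, with 2 lower without pair 3, at a median of -0.30. Protein-coding genes made up 96.7% of the genes called higher, 88.3% of those called lower and 93.4% of all tested with a GENCODE match, and lincRNAs 0.734%, 3.31% and 1.07%. Median exon lengths were 3162, 3448 and 4113 bases in the same order.

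Immediate early genes, which neuronal activity and injury induce, gave 1 call among 17 tested of 20. Fos had FPKM of 42.0, 35.1 and 40.4 in IP and 22.9, 17.8 and 18.3 in input (1.22 ± 0.15, adjusted p = 5.75e-04), and it lost the 2-fold limit with library totals alone. Junb stood at 0.88 (adjusted p = 0.00331) and shares 173 exon bases with Prdx2 on the opposite strand. No gene of cholesterol synthesis, a pathway in which astrocytes supply neurons, was called among 20 tested of 22, and their median was 0.38. Pmvk was highest (0.72 ± 0.13, adjusted p = 0.00435). Likewise none of 13 genes of MHC class I and antigen processing was called, against 1 higher without pair 3 and 1 lower with library totals alone, and H2-K1 was at 0.47 (adjusted p = 0.0422). The H2 genes are near-identical copies that can share reads.

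**Figure D3:**
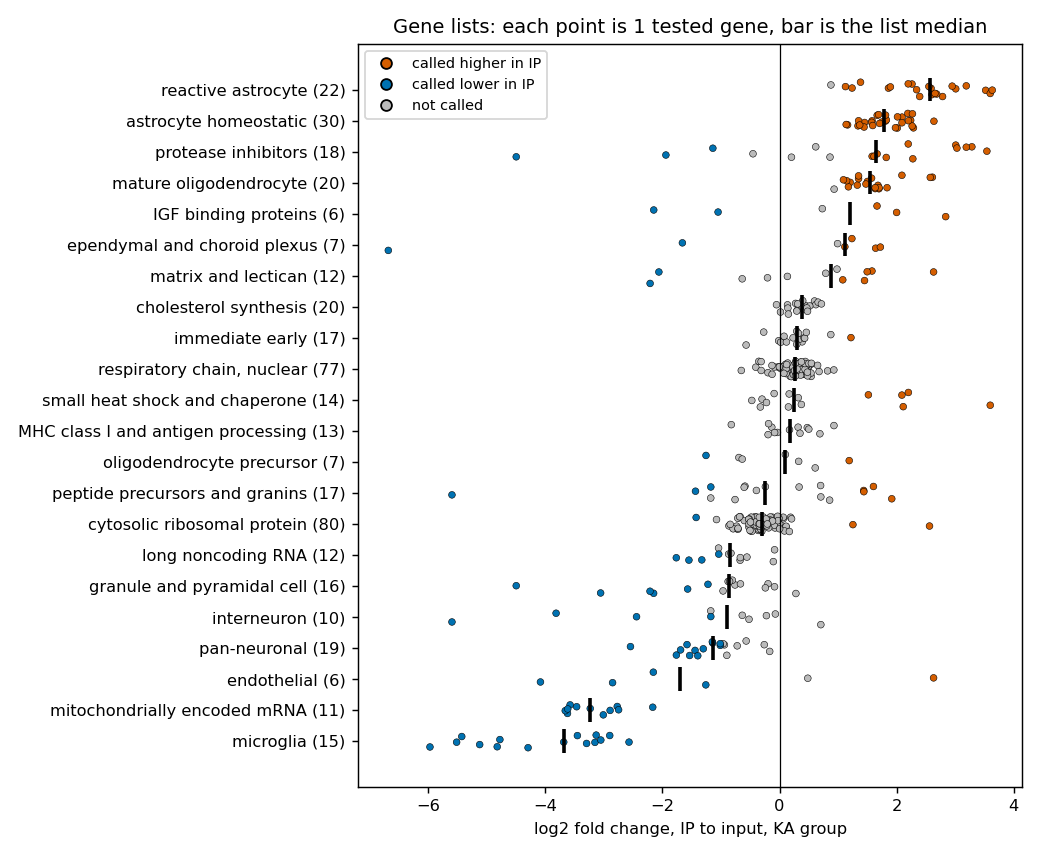
Log2 fold change of IP to input in the KA group for the tested genes of 22 lists (number of tested genes in brackets), ordered by the list median (black bar), with calls coloured by direction. The reactive and homeostatic astrocyte lists have medians of 2.57 and 1.78, and the microglial list lies at -3.68.

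The same comparison was made in the AAV control and PBS groups to set the KA ratios beside those of tissue without KA. Within the AAV control group 1321 of 9961 genes were higher in IP (13.3%) and 1305 lower (13.1%), 26.4% in either direction, and in the PBS group 1541 of 10401 were higher (14.8%) and 1277 lower (12.3%). Of the genes higher in KA IP, 538 were also higher in AAV control IP, which is 65.7% of the KA calls and 40.7% of the AAV control calls, and 528 were higher in PBS IP (64.5% and 34.3%). For lower genes the shared calls were 308 with AAV control (67.7% and 23.6%) and 305 with PBS (67.0% and 23.9%). These shares are of all calls, and some KA calls missed the FPKM limit of the other group. Of the 819 genes higher in KA IP, 659 were tested in AAV control and 661 in PBS. Of the 455 lower genes, 391 and 406 were tested there. Altogether 498 genes were higher and 274 lower in all 3 groups, of 9001 tested in all 3. Of 1026 genes that were tested in KA and higher in both AAV control and PBS IP, 527 were not called in KA, where 8.11% of all genes were called higher. Of 1275 genes higher in AAV control IP and tested in KA, 1236 had a ratio above 1 in KA, with a median log2 fold change of 0.90 against 1.70 in AAV control. The single gene of the 1026 called lower in KA was Ctsz, described with the differences.

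Whether a ratio differed was tested as a contrast of the IP to input ratios, with 12 libraries each. Against AAV control, the ratio was higher in KA for 467 of 9180 genes (5.09%) and lower for 397 (4.32%), 9.41% in either direction, and against PBS it was higher for 463 of 9305 (4.98%) and lower for 826 (8.88%). With the homogenate as a block, the calls against AAV control were 613 and 586. Both contrasts use the KA libraries, so they are not independent, and their values are given side by side. The KA and AAV control pairs with the same number shared a sequencing run, whereas all PBS libraries were sequenced in a run of their own. Each IP to input ratio lies within a run. An effect of the run on that ratio cannot be told apart from KA in the contrast with PBS. AAV control mice had no second injection and were collected sooner after the AAV than KA mice. An effect of either on the ratio cannot be told apart from KA in the contrast with AAV control. Against AAV control, homeostatic astrocyte genes had lower ratios in KA for 18 of 30, for 13 without KA pair 3 and for 26 with the block. Against PBS 24 of 30 had lower ratios, and none of these genes had a higher one in either contrast. Their median log2 fold changes were 1.78 in KA, 3.28 in AAV control and 3.07 in PBS. Their summed FPKM was 66482 to 74653 in KA IP against 81156 to 94481 in AAV control IP and 70595 to 110391 in PBS IP. In input it was 24995 to 31004 in KA, 6184 to 12699 in AAV control and 9222 to 10944 in PBS, so the KA inputs lay above all other inputs. Apoe and Cst3 make up most of these sums, with mean inputs of 10970.5 and 13664 in KA and 2335 and 4341 in AAV control. Other members differed in size of rise, with Aqp4 at 65.8 against 15.4 and Gja1 at 15.1 against 11.6. The sums therefore do not speak for each gene of the list. Of the 3 defining markers Aldh1l1 passed the test, at -1.30 ± 0.22, adjusted p = 0.00251 against AAV control and -1.08 ± 0.27, adjusted p = 0.0101 against PBS, where the call was lost without KA pair 3. The differences for Gfap were -0.92 ± 0.42, adjusted p = 0.186 and -1.20 ± 0.45, adjusted p = 0.0649, and for Vim -0.25 ± 0.35, adjusted p = 0.726 and 0.07 ± 0.34, adjusted p = 0.892. Against PBS, 2 of the 3 defining markers were lower with the block and 2 with library totals alone. Against AAV control that count was 1 in both fits. Among the 10 reactive genes tested against AAV control, 1 was higher and 1 lower, with the block 3 and 1, and without KA pair 3 1 and 0.

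Pan-neuronal genes had higher ratios in KA for 12 of 19 against AAV control and 11 of 19 against PBS. Their medians were -1.14 in KA, -2.58 in AAV control and -2.54 in PBS. In IP their summed FPKM was 2100.2 to 2421 in KA, 553 to 600.4 in AAV control and 456 to 670.2 in PBS, while input held 4328 to 5470.0, 5000.0 to 5419 and 4885 to 5134. Mature oligodendrocyte genes had higher ratios for 5 of 20 against AAV control, 2 of 20 without KA pair 3 and 16 of 20 with the block, and for 16 of 20 against PBS, with medians of -0.09 in AAV control and -0.45 in PBS. Their AAV control IP libraries spread from 831 to 2571 in summed FPKM. Cholesterol synthesis genes had lower ratios for 12 and 9 of 20, with medians of 0.38 in KA, 1.64 in AAV control and 1.23 in PBS. Immediate early genes had higher ratios for 7 of 13 and 6 of 14. Microglial genes had lower ratios for 4 of 9 and 10 of 12, and the first count was 2 without KA pair 3 and 9 with the block.

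**Figure D4:**
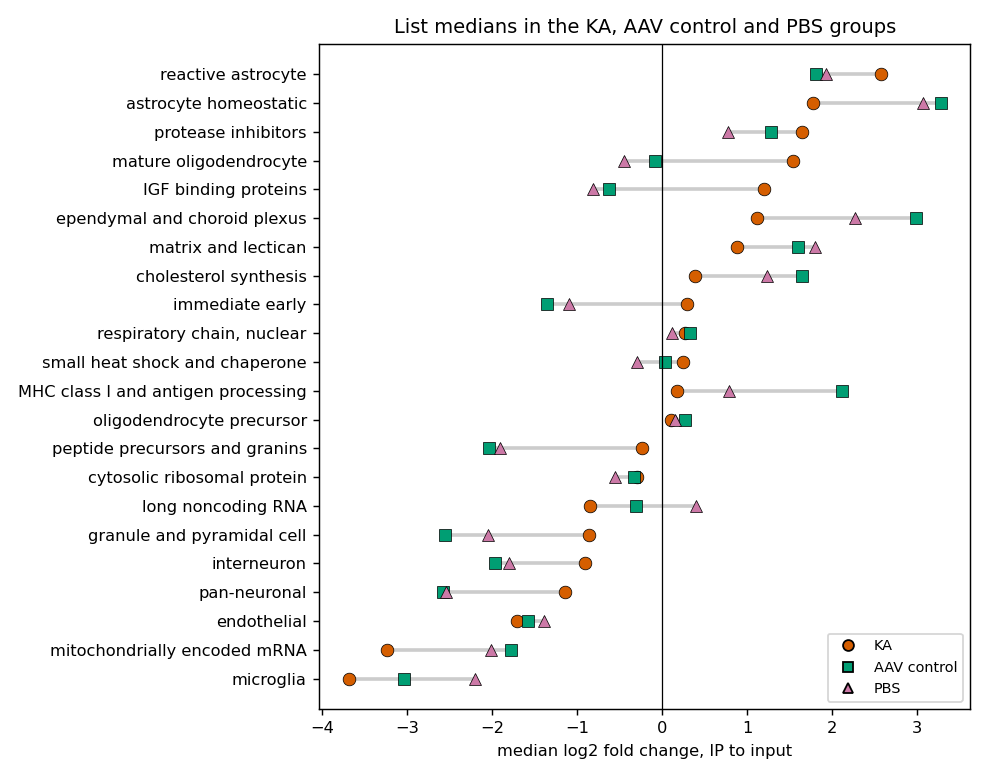
Median log2 fold change of IP to input for the same 22 lists in the KA, AAV control and PBS groups, over the genes tested in KA and, for the other groups, also in that group. Homeostatic astrocyte genes lie at 1.78 in KA against 3.28 and 3.07, and pan-neuronal genes at -1.14 against -2.58 and -2.54. The genes behind a median can differ by group. Reactive astrocyte medians rest on 22 genes in KA, 10 in AAV control and 9 in PBS, and microglial ones on 15, 9 and 12. Over the reactive genes tested in the contrasts, the median difference of the ratios was -0.16 against AAV control and -0.11 against PBS.

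Genes called in both contrasts in the same direction were ranked by the smaller of their 2 differences, so a gene with a larger difference in 1 contrast can be absent. The 8 highest included the peptide and granin genes Scg2, Penk and Cck. Scg2 differed by 3.59 ± 0.38, adjusted p = 2.98e-04 against AAV control and by 3.72 ± 0.35, adjusted p = 3.61e-05 against PBS. Its FPKM in AAV control was 16.5, 18.1 and 14.4 in IP and 69.5, 69.8 and 99.3 in input, and in PBS 19.1, 13.5 and 15.4 and 80.8, 93.4 and 97.0, so it was depleted from IP in both groups and higher in IP in KA. Penk went the same way, by 3.35 ± 0.65, adjusted p = 0.0053 and 3.74 ± 0.65, adjusted p = 0.00146, from 10.96, 9.15 and 5.25 in AAV control IP and 29.0, 22.8 and 23.1 in its input. Cck (3.15 and 3.02), Nrgn (3.10 and 2.85), the calcium sensor Calm2 (2.92 and 2.77) and the vesicle protein Rab3a (2.65 and 2.60) were below input in all 3 groups by their point estimates, and less so in KA. Calm2 averaged 4610.1 ± 1038 in KA IP and 685 ± 35.1 in AAV control IP (SD, n = 3), with inputs of 8928 ± 1099.6 and 9437 ± 108. Igfbp7 moved from -0.62 in AAV control to 1.9997 in KA, a difference of 2.62 ± 0.38, adjusted p = 0.00104. Tnfrsf12a, the receptor of the cytokine TWEAK, moved from -0.14 to 2.55, a difference of 2.68 ± 0.53, adjusted p = 0.0063, and against PBS it was 2.59 ± 0.29, adjusted p = 8.70e-05. Its KA FPKM was 71.4, 81.0 and 80.0 in IP and 17.1, 14.9 and 14.5 in input.

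The 8 genes with the largest lower ratios were chosen by the same rule. Nnat, an imprinted membrane protein (chr2:157560078-157562522), differed by -3.14 ± 0.39, adjusted p = 5.72e-04 against AAV control and -2.998 ± 0.24, adjusted p = 2.33e-05 against PBS. Its FPKM was 98.7, 84.9 and 92.6 in KA IP and 686, 845 and 673 in KA input, against 416, 449.5 and 696 and 406, 375 and 574 in AAV control, so the KA IP libraries lay below these others. Sst differed by -2.83 ± 0.23, adjusted p = 2.03e-04 and -3.08 ± 0.38, adjusted p = 1.68e-04, from 141, 212 and 154 in AAV control IP. Mfge8, a secreted protein that bridges cells for uptake and is typical of astrocytes, had 14.2, 18.0 and 16.8 in KA IP and 13.5, 18.4 and 19.3 in KA input, with no call (0.15 ± 0.20, adjusted p = 0.598), and it averaged 145 ± 37.6 in AAV control IP (-2.81 and -2.79). Hes5, a target of Notch, fell from a mean of 26.0 ± 5.66 in AAV control IP to 2.47 ± 0.714 in KA IP (-3.06 and -2.75). Ctsz, a lysosomal protease (chr2:174427493-174439039), had 104, 85.3 and 83.6 in KA IP and 282, 218 and 236 in KA input, and 75.4, 61.5 and 106 and 24.5, 18.4 and 40.8 in AAV control. The KA and AAV control IP values overlapped and the KA inputs stood above the AAV control inputs, so that a gene higher in IP in AAV control (1.68) and PBS (1.39) was lower in KA (-1.22). Ppp1r1b (-2.76 and -2.66), the retinaldehyde reductase Dhrs3 (-2.53 and -2.63) and Ptgs1, cyclooxygenase 1 (-2.50 and -2.49), completed the set. Ptgs1, which microglia express, read 1.596, 1.38 and 1.36 in KA IP and 7.86, 6.38 and 5.88 in KA input.

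**Figure D5:**
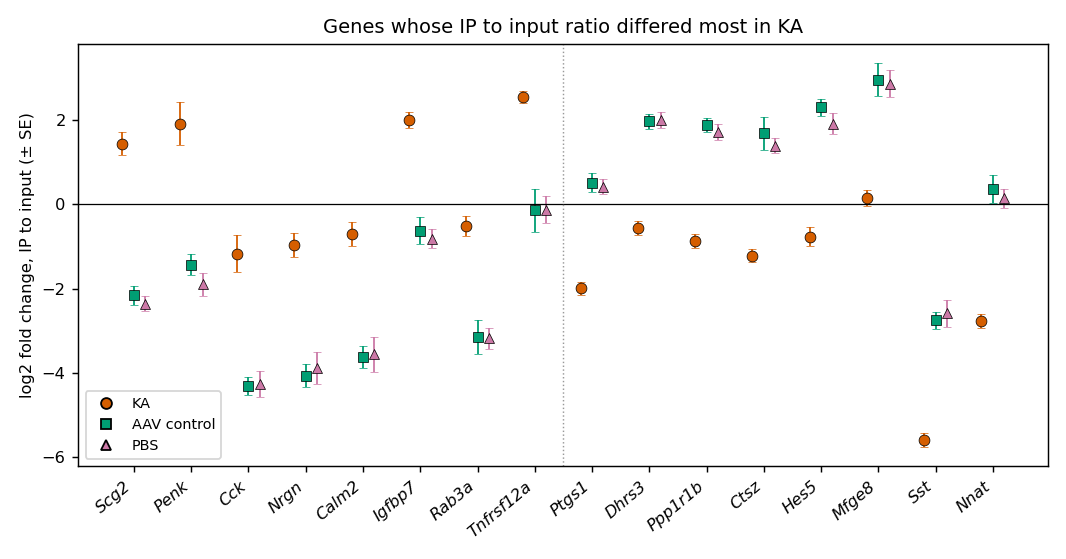
Log2 fold change of IP to input, with its standard error, in the KA, AAV control and PBS groups for the 8 genes with the largest higher (left of the dotted line) and the 8 with the largest lower ratios in KA, ranked by the smaller of the 2 differences among genes called in both contrasts. Scg2 lies at 1.44 in KA against -2.15 and -2.36, and Nnat at -2.77 against 0.37 and 0.15.

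The cAMP response elements before Scg2 and Sst, sites of the factor CREB, are shown for these peptide genes, which were chosen after their values were seen. Their IP to input ratios, not their transcription, differed in opposite directions between KA and both other groups. Whether the site has a part in this was not tested. Each run is 30 bases of GRCm38.p6, 5′ to 3′ on the minus strand, which is the strand of both genes, with TGACGTCA in capitals. They lie at chr1:79440076-79440105 for Scg2 and chr16:23890874-23890903 for Sst.
Scg2: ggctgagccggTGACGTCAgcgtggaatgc
Sst: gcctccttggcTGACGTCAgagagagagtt
The element begins 68 bases before the RefSeq start in Scg2 and 48 in Sst, and the GENCODE models of both genes begin further upstream, so that it lies inside them. In the 250 bases before the RefSeq start, TGACGTCA on either strand was held by 1.68% of 653 genes called higher, 3.65% of 301 called lower, 3.22% of 7792 tested and 1.77% of all 27025 promoters. TTCNNNGAA, the STAT site, was held by 7.96%, 6.64%, 6.56% and 8.13%, and TGANTCA, the AP-1 site, by 8.58%, 7.64%, 5.09% and 7.82%. TGACGTCA and TGANTCA cannot share bases, whereas TTCNNNGAA and TGANTCA can. A match is a description of the letters only.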

How the data were processed

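RNA of 3 KA IP and 3 KA input libraries was analysed, with 12 AAV control and PBS libraries for comparison. The authors aligned reads to mm10 with STAR, counted them with featureCounts and deposited raw counts per gene symbol. Beside them they deposited FPKM values, which divide by gene length and library total. STAR, featureCounts and edgeR are named in the submitters' processing notes, and the annotation release, strand setting and treatment of multimapping reads are not given in the sources used here. Libraries with the same number share a homogenate by the study's methods. The IP and input deviations of the KA group correlated at 0.472, 0.452 and 0.627 for the same numbers and at -0.51 to 0.28 for different numbers. All negative values involved pair 3, which was sequenced in another run, and within run 1 different numbers gave 0.28 and 0.24. Deviations from a mean of 3 also lower the values for different numbers, so these correlations do not separate the homogenate from the run.

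Genes with FPKM above 1 in all libraries compared were tested on the counts with edgeR 4.0.16 (quasi-likelihood, TMM scaling, the libraries of the groups compared, no block, Benjamini-Hochberg adjustment over all genes tested, R 4.3.3). A call needed an adjusted p under 0.05 and a log2 fold change of at least 1 in size. Differences between groups were contrasts of the IP to input ratios. The code was tested on simulated data. Gene positions and exon lengths came from GENCODE vM21 on GRCm38 and promoters from RefSeq.

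Named genes were the 15 largest calls in each direction, the markers and Rpl10a, the 3 most abundant and 2 most changed members of each list, the 8 largest differences in each direction by the smaller of the 2 among genes called in both contrasts and the 3 most abundant IP genes. A gene that this rule names is not reported here. Genes outside that rule, namely Bag3, Bcan, C3, Ccdc153, Cd44, Cxcl10, Foxj1, Hspb6, Igfbp3, Igfbp4, Ncan, Nefl, Nefm, Oip5os1, Pcsk2, Pdyn, Rps27l, Scg3, Serping1, Serpini1, Spint2, Stat3, Synm, Timp2, Timp3, Timp4 and Vip, were chosen after their values were seen. The members and lists were chosen with earlier results of these data known. Alternatives changed the scaling, the filter, the tool (DESeq2 1.42.0, limma 3.58.1), the block, the run and the libraries. List counts without pair 3, with the block and with library totals were added after seeing the data.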

Additional observations from a re-analysis of the deposited data

Results flagged for a closer look

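The IP to input ratio of the KA group was tested against that of both other groups, and the differences past the threshold are listed here with no explanation. Against AAV control 467 genes had a higher and 397 a lower ratio in KA, and against PBS 463 had a higher and 826 a lower one. Both sets of differences use the same KA libraries, and the PBS libraries were sequenced in a run of their own. The AAV control mice had no second injection and were collected sooner after the AAV than the KA mice.

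Among the genes with higher ratios in KA, the log2 differences against AAV control and PBS were 3.59 and 3.72 for Scg2, 3.35 and 3.74 for Penk, 3.15 and 3.02 for Cck, and 3.10 and 2.85 for Nrgn. They were 2.92 and 2.77 for Calm2, 2.62 and 2.74 for Igfbp7, 2.65 and 2.60 for Rab3a, and 2.68 and 2.59 for Tnfrsf12a.

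Among those with lower ratios they were -3.14 and -2.998 for Nnat, -2.83 and -3.08 for Sst, -2.81 and -2.79 for Mfge8, and -3.06 and -2.75 for Hes5. They were -2.90 and -2.68 for Ctsz, -2.76 and -2.66 for Ppp1r1b, -2.53 and -2.63 for Dhrs3, and -2.50 and -2.49 for Ptgs1.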

How the results depend on the processing

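Of 212 recomputed counts, 182 stayed within 1.5 times the reported count and 30 moved. Of 494 list medians 402 moved by less than the spread between pairs and 92 by more. The medians that took both signs were those of oligodendrocyte precursor (-0.63 to 0.19), mural cell (-1.98 to 1.41), respiratory chain (-0.11 to 0.50) and MHC class I genes (-0.06 to 0.33). Without pair 3 the lower calls were 8 among principal cell and 5 among interneuron genes, ependymal and choroid plexus genes had 5 higher calls, and 9 cholesterol synthesis genes had lower ratios in KA than in AAV control. The filter moved most of them. With edgeR's filterByExpr the calls were 1371 higher and 1309 lower in KA, 2201 and 2128 in AAV control, 2881 and 2156 in PBS, and 976 and 1421 for KA against PBS. With no filter they were 1558 and 1588, 2619 and 2346, 3475 and 2261, 943 and 750 for KA against AAV control, and 1175 and 1460 for KA against PBS. With a mean FPKM above 1, KA had 838 lower calls and KA against PBS 740 higher ones. With library totals KA had 798 lower calls. Within run 1, KA against AAV control had 663 lower calls. An FPKM ratio of at most 0.5 was met by 480 genes on TMM-scaled CPM and by 485 when required in every pair. These filters test other numbers of genes, and the cause of the other shifts was not tested.

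Leaving out libraries gave 655 to 975 higher and 392 to 608 lower calls in KA, 1181 to 1399 and 1187 to 1455 in AAV control, 1472 to 1636 and 1240 to 1415 in PBS, and 417 to 575 and 573 to 912 for KA against PBS. For KA against AAV control the ranges were 265 to 653 and 218 to 603, with 265 and 218 without KA pair 2, 275 and 239 without AAV control pair 1, 308 higher without AAV control pair 2 and 603 lower without AAV control pair 3. The FPKM ratio counts ran from 574 to 669 and from 772 to 929.

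With the replicate block KA had 831 higher and 489 lower calls, AAV control 1374 and 1364, PBS 1520 and 1305, KA against AAV control 613 and 586, and KA against PBS 492 and 872, so the block moved none of these counts by over 1.5 times. Of 107 named genes called in KA, 83 passed the test in all fits that left out a library or pair and 24 missed it in at least 1. Snhg11 and Ccdc153 missed it in 7 of 9 such fits, Acta2, Gm23935 and Sox9 in 6, Dynlrb2 and Snhg8 in 5, and Apoe, Mt3 and Penk in 4. These leave-out fits held no block, so a level shared by both libraries of a pair counted as spread. Over all settings the log2 fold change ran from 0.47 to 1.59 for Acta2, lowest without pair 1, and from 1.07 to 2.24 for Penk, lowest without IP #3. The sign changed for uncalled genes alone. Mfge8 was at -0.065 with library totals, at -0.043 without KA input #1 and at 0.31 without KA input #3. Npy was at -0.00771 with limma-voom, -0.025 with the replicate block and -0.50 within run 1, which is also the fit without pair 3. It ranged from -1.14 without KA IP #3 to 1.35 without KA input #3. The 16 genes with the largest differences stayed past the threshold in all 864 values.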

Other observations

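Genes that passed the FPKM limit on one side alone belong in no test above, and those given here were chosen after their values were seen. Gh, growth hormone, had FPKM of 28.6, 84.4 and 3.98 in KA input and 0.729, 1.23 and 0.106 in KA IP. Glycam1, a mucin-like protein, had 9.81, 8.64 and 13.5 in KA IP and 0.903, 2.12 and 3.26 in KA input.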
